A study of Homo sapiens with 6 samples.

Results

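A set of 9 transcripts used to mark breast cancer stem cells was read in MDA-MB-231 cells given DNAJC12. It holds the surface proteins CD24, CD44, PROCR and PROM1, the aldehyde dehydrogenases ALDH1A1 and ALDH1A3, and the transcription factors SOX9, KLF4 and MYC. They were the 9 rows of a table of 58735 genes that carried these symbols. The line is a basal-like, mesenchymal breast carcinoma line without oestrogen receptor, progesterone receptor or amplified ERBB2. RNA was sequenced from 3 libraries of cells transfected with a DNAJC12 vector and from 3 of cells transfected with the empty vector, so every cell had gone through a transfection. DNAJC12 is a J-domain co-chaperone. The labels give neither the promoter of the vector, nor the time after transfection, nor whether the 3 libraries of a group are separate cultures, so the p-values measure only the spread between these libraries, which may be technical. Values of single libraries are given in the order of replicates 1, 2 and 3, and those with DNAJC12 come first unless the sentence says otherwise.

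Breast tumours contain a minority of cells that seed new tumours on transplantation, and these were first isolated as cells with high CD44 and little CD24 on their surface. CD44 is the main receptor for hyaluronan, and CD24 is a short, heavily glycosylated protein held in the membrane by a lipid anchor. Cells with high aldehyde dehydrogenase activity form an overlapping pool, and in breast cancer that activity is attributed mostly to ALDH1A3 and ALDH1A1, which oxidise retinaldehyde to retinoic acid. PROCR, the protein C receptor, marks multipotent cells of the mouse mammary gland. PROM1, or CD133, is a membrane protein used as a stem cell marker in many tumours. SOX9 is a progenitor factor of the mammary epithelium, and KLF4 and MYC are among the factors that reprogram differentiated cells to pluripotency.

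The libraries held 17967283 to 18887497 counts. As a check of the labels, DNAJC12 was counted 522, 523 and 492 times in the 3 libraries meant to overexpress it and 1, 0 and 0 times in the others. Among markers of the line, VIM lay between 851 and 999.7 CPM (counts scaled to a common library size with the TMM factors of edgeR) over the 6 libraries, and ESR1 and PGR had at most 3 counts in any library. Other luminal markers were present. Of 18 luminal and differentiated breast markers 13 were abundant enough to test, and 0 rose or fell. The most abundant, the keratins KRT8 and KRT18, had 2009 ± 758 and 818 ± 296 CPM with DNAJC12. With the empty vector they had 1620 ± 124 and 618 ± 52.7 (SD, n = 3). Of 14 tested basal and mesenchymal markers 0 rose and 1 fell, and 11 had log2 fold changes above 0, with a median of 0.45. Without overlap between the groups 5 were higher and 2 lower, as were 9.26% and 10.8% of all tested genes. AXL, a receptor kinase of mesenchymal cells, had 1519, 2384 and 1792 CPM against 1337, 1482 and 1368 (adjusted p = 0.399). The part of these shifts in the marker results was not tested. Overexpression replicate 2 had the highest mean transcript GC content over its counts, at 54.3%. The other values were 51.9% and 52.8% in overexpression replicates 1 and 3 and 52.4%, 53.7% and 53.3% in empty vector replicates 1 to 3. The TMM factor of overexpression replicate 2 was the lowest, at 0.853 against 0.996 to 1.09 in the others. Blood cell markers summed to 5.01 to 12.8 CPM with DNAJC12 and 6.71 to 8.57 with the empty vector. Of these 11 genes CD14 alone was abundant enough to test, at 8.95 and 7.16 CPM, and CD3E, MS4A1 and FCGR3A had 0 counts in every library.

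CD24 and PROCR fell with DNAJC12, by 4.26-fold and 2.24-fold, and ALDH1A3 had a value 2.15-fold lower that did not pass the test. SOX9, KLF4 and MYC had values 1.79-fold, 1.67-fold and 1.49-fold higher, none of which passed. CD44 had a log2 fold change of -0.10 ± 0.18 SE. ALDH1A1 and PROM1 were close to absent in both groups and were removed by the filter on low counts. Of the 7 tested markers, 2 were thus called lower and 0 higher (edgeR quasi-likelihood test, adjusted p below 0.05). Over all 14520 tested genes 0.661% were called lower and 0.585% higher. At an unadjusted p under 0.05 there were 3 markers in each direction, against 7.25% of all genes higher and 6.86% lower. The DESeq2 Wald test called 3 markers lower (CD24, PROCR and ALDH1A3) and 1 higher (SOX9), against 1.9% and 1.99% of all genes. The libraries of the 2 groups did not overlap in CPM for 6 markers. For 3 of them the values were lower with DNAJC12, as in 10.8% of all tested genes, and for 3 they were higher, as in 9.26%.

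**Figure D1:**
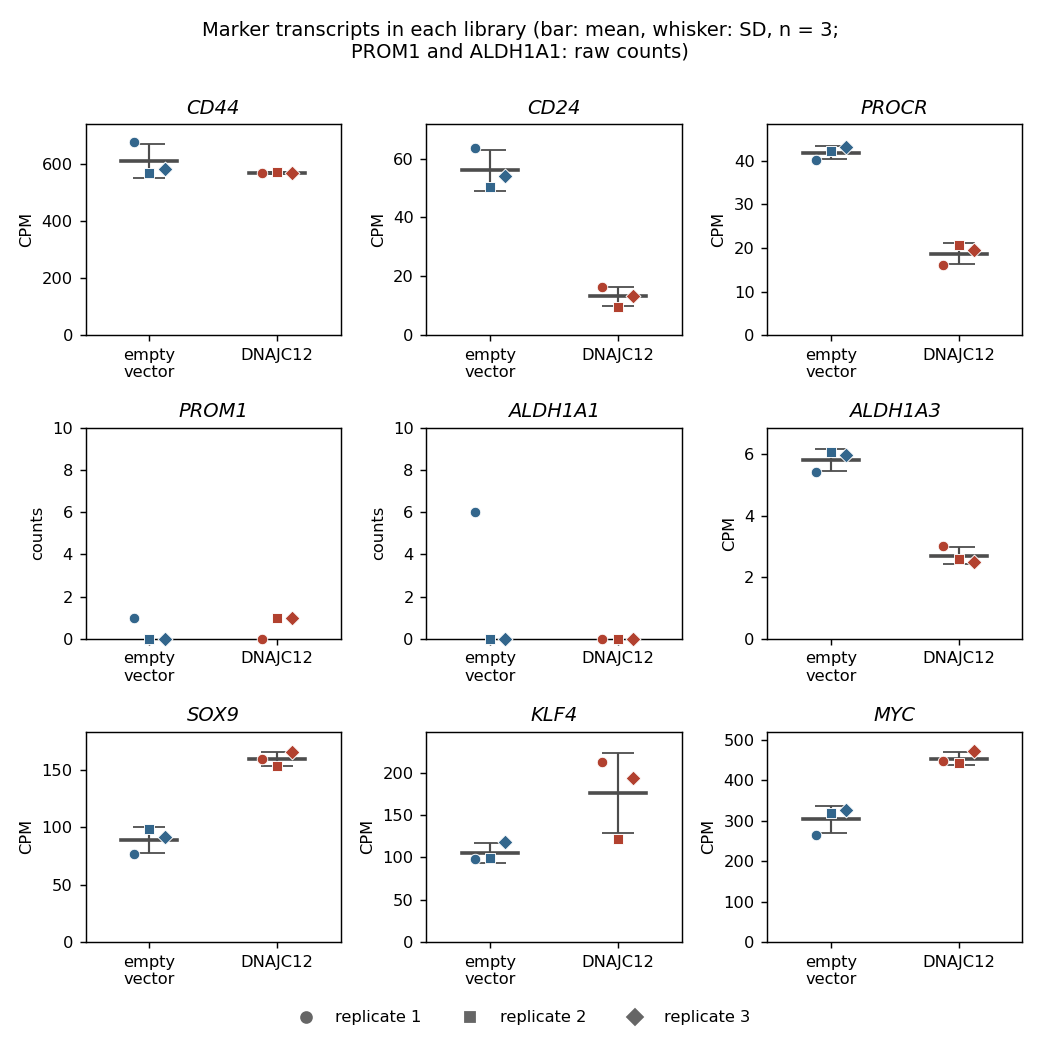
Level of each of the 9 marker transcripts in the 6 libraries, in CPM on linear axes from 0 (raw counts for PROM1 and ALDH1A1). Points are libraries, shaped by replicate number, bars are group means and whiskers SDs (n = 3). The groups are apart for 6 markers, 3 lower and 3 higher with DNAJC12. CD44 overlaps, and PROM1 and ALDH1A1 lie at 6 counts or fewer.

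Per listed length of gene, MYC was the most abundant marker with the empty vector and CD44 the second. MYC ran from 87.1 to 108 FPKM and CD44 from 57.04 to 67.1 FPKM (fragments per gene length and depth of library, as the authors deposited it). The order therefore depends on the length listed for each gene. KLF4 followed at 26.4 to 32.2 FPKM. PROCR (23.4 to 25.3 FPKM), SOX9 (19.2 to 25.0) and CD24 (16.2 to 20.3) came next, with each range reaching into that of its neighbour. ALDH1A3 lay well below them at 0.928 to 1.05 FPKM. With DNAJC12, SOX9 (38.9 to 41.3 FPKM) stood above PROCR (9.34 to 12.1) and CD24 (3.12 to 5.23) without contact between the ranges, while KLF4 (33.3 to 57.04) reached into the ranges of both CD44 (56.0 to 57.2) and SOX9. Over the 6 libraries the level of CD24 per length exceeded that of 51.3% of tested genes in the lowest of the 6 libraries and of 84.3% in the highest.

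CD24, on the minus strand of chromosome 6 (106969831 to 106975627, coordinates in GRCh38), changed most of the 7. Its counts were 328, 153 and 254 with DNAJC12 and 1186, 904 and 1015 with the empty vector. On the CPM scale that was 16.4, 9.67 and 13.3 against 63.6, 50.3 and 54.1. Every library with DNAJC12 lay below every empty vector library, and the highest of the former reached 0.327 times the lowest of the latter. CD24 fell by 2.09 ± 0.26 SE on the log2 scale, with an adjusted p of 0.00732 at rank 26 among the tested genes by p-value. CD24 has 3 processed pseudogenes in the annotation, which together held 2 counts with DNAJC12 and 12 with the empty vector. Reads shared between CD24 and these copies were not measured. Its transcripts have a mean GC content of 50.9%, higher than 52.2% of tested genes. The call was lost without overexpression replicate 3 (adjusted p = 0.0819), empty vector replicate 1 (0.0714) or empty vector replicate 3 (0.0507), with log2 fold changes of -2.09, -1.996 and -2.11.

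The 2 markers that fell are shown with the stretch before their start sites, and KLF4 is added as a marker with higher values in all 3 overexpression libraries. RefSeq windows were taken for 7 of the 9 markers, since MYC was left out of the search and none was found for SOX9. Each sequence is the 250 bases that end just before the first listed RefSeq start in GRCh38.p14, read 5′ to 3′ on the gene's strand: chr6:106975628-106975877 (minus strand) for CD24, chr20:35171822-35172071 (plus strand) for PROCR and chr9:107489770-107490019 (minus strand) for KLF4. Capitals mark matches, on either strand, to the GC box GGGCGG, the KLF core CACCC, the E-box CACGTG, the SOX core ACAAT, AP-1 TGANTCA, the TATA box TATAAA and the CCAAT box.
CD24: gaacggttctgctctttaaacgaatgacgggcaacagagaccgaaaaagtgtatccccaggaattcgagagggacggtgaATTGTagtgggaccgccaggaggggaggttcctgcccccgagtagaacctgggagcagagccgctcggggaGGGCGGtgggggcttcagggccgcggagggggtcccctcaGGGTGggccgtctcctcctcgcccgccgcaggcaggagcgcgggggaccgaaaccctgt
PROCR: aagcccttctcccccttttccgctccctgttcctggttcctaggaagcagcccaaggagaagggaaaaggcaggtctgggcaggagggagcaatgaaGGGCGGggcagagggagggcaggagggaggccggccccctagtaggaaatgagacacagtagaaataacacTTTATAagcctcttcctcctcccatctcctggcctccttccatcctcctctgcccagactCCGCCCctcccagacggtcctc
KLF4: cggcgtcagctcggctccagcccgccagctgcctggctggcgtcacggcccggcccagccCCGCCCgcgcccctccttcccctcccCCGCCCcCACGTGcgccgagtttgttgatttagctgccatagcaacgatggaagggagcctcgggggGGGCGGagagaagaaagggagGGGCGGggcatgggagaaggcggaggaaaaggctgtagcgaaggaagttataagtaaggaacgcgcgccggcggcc
The CD24 window held 1 GC box, 1 KLF core and 1 SOX core, and 65.6% of its bases were G or C. RefSeq lists 3 starts for CD24, and the windows before starts 2 and 3 held no match to the SOX core. The PROCR window held 2 GC boxes and, 82 to 77 bases before the start, the TATA box letters on the minus strand, with a G and C share of 60.0%. The KLF4 window held 4 GC boxes and 1 E-box and was the richest in G and C, at 69.2%. Among 27305 such windows, 1 per gene, 42.3% held the GC box, 53.7% the KLF core, 25.2% the SOX core, 11.1% the TATA box and 6.49% the E-box. These matches describe letters only and do not show that a factor binds there.

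CD44, on the plus strand of chromosome 11 (35138870 to 35232402), had overlapping values in the 2 groups. It stood at 568, 573 and 570.5 CPM with DNAJC12 and at 680 CPM, 571 CPM and 583 CPM with the empty vector. The overexpression libraries differed little (SD 2.56 CPM), and empty vector replicate 1 was the high point of the 6. The adjusted p was 0.861. The annotation lists 39 transcripts for CD44, many of them splice variants that differ in the extracellular stem, and counts per gene do not tell them apart. CD44-AS1, which overlaps it on the opposite strand, had at most 4 counts in a library.

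The CD44 to CD24 ratio, which restates the sorting definition at the level of transcripts, was taken within each library. In FPKM it was 10.7, 18.4 and 13.3 with DNAJC12 and 3.31, 3.52 and 3.34 with the empty vector. The empty vector ratios were nearly equal, and the smallest ratio with DNAJC12 was above all of them. On the log2 scale the means were 3.78 ± 0.39 and 1.76 ± 0.05 (SD, n = 3), a difference of 2.03. The exact two-sided permutation test gave p = 0.1, the smallest value that 3 against 3 libraries can give. Since the ratio is taken within a library, scaling between libraries does not enter it. It is a ratio of transcripts in the bulk culture, so fewer cells with CD24 and less CD24 RNA per cell cannot be told apart, here or for any other marker.

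**Figure D2:**
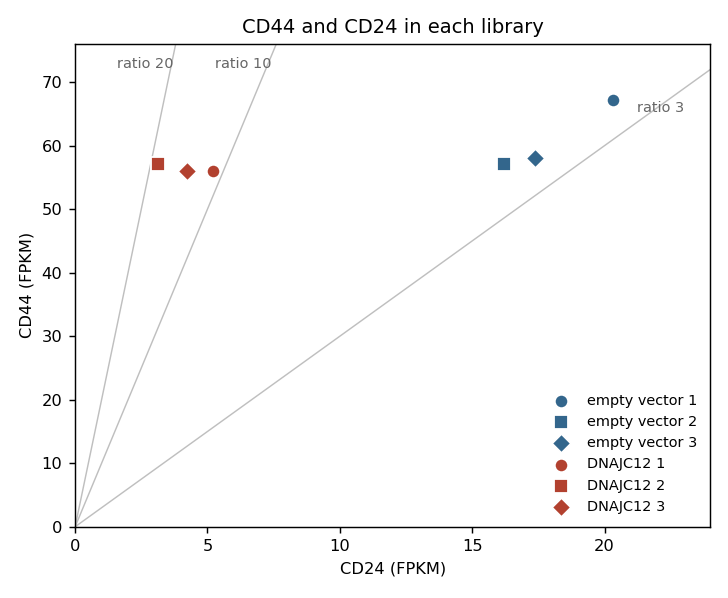
CD44 against CD24 in each library, both in FPKM on linear axes from 0. Points are libraries, coloured by group, and grey lines join equal ratios of the 2 transcripts. The libraries with DNAJC12 lie at 3.12 to 5.23 FPKM of CD24 and those with the empty vector at 16.2 to 20.3, at similar CD44.

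PROCR, on the plus strand of chromosome 20 (35172073 to 35216240), had 321, 326 and 372 counts with DNAJC12 and 749, 761 and 810 with the empty vector. In CPM that was 16.1, 20.6 and 19.4 against 40.2, 42.3 and 43.2. The highest overexpression library reached 0.513 times the lowest empty vector library. PROCR fell by 1.16 ± 0.21 SE on the log2 scale (adjusted p = 0.0346). MMP24OS, a well-expressed gene on the opposite strand inside the PROCR locus, shares no exon with it. This call was lost without overexpression replicate 3 (adjusted p = 0.218) and without empty vector replicate 1 (0.156), 2 (0.179) or 3 (0.204). PROM1 on chromosome 4 (15963076 to 16084378) had 0, 1 and 1 counts with DNAJC12 and 1, 0 and 0 with the empty vector, all under a floor of 3 counts, which corresponds to 0.1503 to 0.190 CPM, so no difference was detectable at this depth.

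PROCR binds protein C and passes it to thrombin held by thrombomodulin, and the activated protease signals through the thrombin receptor family. Of 10 genes of that system 9 were tested and 0 were called, with 1 lower and 0 higher before adjustment, beside 6.86% and 7.25% of all genes. The DESeq2 Wald test called 1 lower, beside 1.9% of all genes. The receptor F2RL1, the most abundant over both groups together, had 253 ± 63.4 CPM with DNAJC12 and 358 ± 52.5 with the empty vector (SD, n = 3), and tissue factor, F3, had 280.1 ± 90.5 and 224 ± 32.4. PROC, the ligand, had at most 2 counts in a library. TFPI2, a protease inhibitor chosen here after its values were seen, had 34.8, 29.6 and 38.1 CPM against 68.2, 64.1 and 67.5, and an adjusted p of 0.0537. The median log2 fold change of the 9 genes was 0.04, against 0.05 over all tested genes. Among the partners of CD44 (hyaluronan synthases and hyaluronidases, the cytoskeletal linkers and splicing regulators), 0 of 16 tested genes were called, with 2 higher and 3 lower unadjusted and 0 by DESeq2. The linker MSN had 1059 ± 139 CPM and 1044 ± 98.1 CPM (SD, n = 3), and the membrane protease MMP14, which can shed CD44, 525 ± 159 and 691 ± 71.6.

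Both ALDH1A enzymes were scarce. ALDH1A3, on the plus strand of chromosome 15 (100877714 to 100916626), had 60, 41 and 48 counts with DNAJC12 and 101, 109 and 112 with the empty vector, or 3.01, 2.59 and 2.51 CPM against 5.42, 6.06 and 5.97. The groups did not overlap. The log2 fold change was -1.10 ± 0.26 SE and the adjusted p 0.0818. AC015712.2, an antisense transcript that overlaps ALDH1A3 exons, had 3 to 18 counts, and since the counting is not stated to use strand, some of these reads could belong to either gene. ALDH1A1, on the minus strand of chromosome 9 (72900662 to 73080442), had 6 counts in empty vector replicate 1 and 0 in the other 5 libraries. A single library thus carried all of its reads, and the ratio of ALDH1A3 to ALDH1A1 could not be formed in the others.

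Over the whole family of 19 aldehyde dehydrogenases, ALDH1A3 and ALDH1A1 made up little of the summed FPKM, which depends on the length listed for each gene. ALDH1A3 took 0.290% to 0.753% of the summed FPKM of the family in a library and ALDH1A1 at most 0.0844%. ALDH9A1, which acts in carnitine synthesis, took 24.1% to 31.1% with DNAJC12 and 20.5% to 21.1% with the empty vector. ALDH18A1, which makes the precursor of proline, took 18.5% to 22.4% and 24.8% to 27.5%. Of the 17 other members 14 were tested, 1 fell and 0 rose, beside 0.661% and 0.585% of all genes. Before adjustment 3 were lower and 0 higher, beside 6.86% and 7.25%. Without overlap between the groups 5 were lower and 1 higher, beside 10.8% and 9.26%. The gene that fell was ALDH3A1, an enzyme that detoxifies aldehydes in the cornea and stomach, with 1.95, 2.72 and 1.57 CPM against 5.96, 6.79 and 7.19. Its level fell by 1.68 ± 0.30 SE on the log2 scale, at an adjusted p of 0.0322. ALDH3A1 lost the call without overexpression replicate 3 (adjusted p = 0.242) and without empty vector replicate 1 (0.146), 2 (0.140) or 3 (0.168). The median log2 fold change of the 14 tested genes other than ALDH1A3 was -0.03. ALDH18A1 (log2 fold change -0.38, adjusted p = 0.487) and ALDH3B1 (0.16, adjusted p = 0.839) had the highest CPM among them over both groups together.

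Downstream of the ALDH1A enzymes, retinoic acid is bound by carrier proteins and activates the nuclear receptors RARA, RARB and RARG. Of 22 genes of this pathway 15 were tested, 2 fell and 0 rose, and the median log2 fold change was -0.23. Before adjustment 5 were lower and 1 higher, beside 6.86% and 7.25% of all genes. The DESeq2 Wald test called 2 lower and 0 higher, beside 1.9% and 1.99%. CRABP2, which carries retinoic acid to the receptors and is itself induced by it, had 3.36, 8.22 and 5.49 CPM with DNAJC12 and 21.3, 19.4 and 16.8 with the empty vector. It fell by 1.76 ± 0.34 SE on the log2 scale (adjusted p = 0.0450), and the highest overexpression library stayed below the lowest empty vector library. RARB, a receptor whose gene is a standard retinoic acid target, had 1, 0 and 2 counts with DNAJC12 and 21, 16 and 10 with the empty vector. It was 15.5 times higher in the empty vector group, with exact Clopper-Pearson bounds (95%) of 5.001 and 78.0, which cover counting error only, and its adjusted p was 0.0398. RARB lay below the level required for naming genes and was chosen after its values were seen, like the next 4 genes. RARG, the most abundant of the 3 RARs, had 38.8, 66.4 and 45.9 CPM against 80.6, 90.3 and 82.0, and DHRS3, a retinaldehyde reductase, had 11.6, 21.0 and 14.4 against 27.7, 31.9 and 26.9. Neither passed, at adjusted p of 0.188 and 0.174. TGM2, a transglutaminase induced by retinoic acid and the most abundant gene of the list, had values that overlapped and were on average higher with DNAJC12, at 886, 1634 and 1056 CPM against 722, 908 and 772 (adjusted p = 0.347). RARRES3, another retinoic acid-induced gene, had 79.1, 148 and 100.1 CPM against 81.3, 85.8 and 74.02 (adjusted p = 0.481). The number of pathway genes that fell was 5 after a correction for GC content, with 2 that rose, and 5 without overexpression replicate 2 or without both libraries numbered 2, each with 0 that rose. In the same order 8.99%, 10.4% and 8.41% of all genes were called lower, against 0.661% with all libraries and no correction. The number of pathway genes that fell was 0 when overexpression replicate 3 or any single empty vector library was left out. Without overexpression replicate 1 it was 1, when 0.728% of all genes were called lower.

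SOX9, on the plus strand of chromosome 17 (72121020 to 72126420), had 159, 153 and 165 CPM with DNAJC12 and 76.4, 98.5 and 91.6 CPM with the empty vector. The lowest overexpression library was 1.56 times the highest empty vector library. Its log2 fold change of 0.84 ± 0.20 SE had an adjusted p of 0.0729. The DESeq2 Wald test called it (adjusted p = 0.0158). SOX9-AS1, which runs on the opposite strand without exon overlap, had 9 to 21 counts. Of the other 18 SOX genes 7 were tested and 0 called, with 0 at an unadjusted p under 0.05, 0 called by DESeq2 and a median log2 fold change of -0.20. SOX12 and SOX13, the most abundant, had 70.6 ± 18.7 and 46.7 ± 13.9 CPM with DNAJC12 and 65.4 ± 12.4 and 53.5 ± 3.56 with the empty vector (SD, n = 3).

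KLF4, on the minus strand of chromosome 9 (107484852 to 107490482), had 212, 122 and 194 CPM with DNAJC12 and 97.6, 99.8 and 118 CPM with the empty vector. Replicate 2 lay far below the other overexpression libraries and only 1.03 times above the highest empty vector library. Before scaling it was inside the empty vector range, at 1930 counts against 1819, 1794 and 2223. For KLF4 the log2 fold change was 0.74 ± 0.24 SE, at an adjusted p of 0.205. Without overexpression replicate 2 it was 0.94 with an adjusted p of 0.00133. Of the other Krüppel-like factors 13 were tested. Their log2 fold changes were above 0 for 12. Before adjustment 6 were higher and 0 lower, beside 7.25% and 6.86% of all genes, and 0 were called after it. DESeq2 called 0. Their median log2 fold change was 0.62, against 0.05 over all tested genes. KLF6, the most abundant, had 345, 155 and 285 CPM against 152, 143 and 165, and KLF2, a factor of quiescent endothelium and T cells, had 77.1, 134 and 96.9 against 53.7, 66.1 and 69.0. KLF6 was lowest in overexpression replicate 2, as KLF4 was, whereas KLF2 was highest there. Corrected for GC content, 6 of the 13 factors rose, when 8.85% of all genes were called higher. Leaving out both libraries numbered 2 gave 6 of 14, beside 10.3% of all genes. Without overexpression replicate 2 alone it was 7 of 15, beside 12.1%.

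MYC, on the plus strand of chromosome 8, had 447, 441 and 471 CPM with DNAJC12 and 264, 319 and 326 CPM with the empty vector. The lowest overexpression library was 1.35 times the highest empty vector library. The values gave a log2 fold change of 0.58 ± 0.19 SE (adjusted p = 0.192). MYC binds DNA as a dimer with MAX, against which the MXD proteins compete. Of 20 tested partners and regulators 0 were called, with 2 higher and 2 lower unadjusted, beside 7.25% and 6.86% of all genes. DESeq2 called 1 in each direction, beside 1.99% of all genes higher and 1.9% lower. The ubiquitin ligase HUWE1 had 267 ± 18.9 CPM with DNAJC12 and 304 ± 22.97 with the empty vector, and the kinase AURKA 146 ± 12.5 and 203 ± 5.09 (SD, n = 3). MXD1, chosen after its values were seen, had 37.0, 17.01 and 29.5 CPM against 7.51, 9.90 and 11.6, with an adjusted p of 0.0617.

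Of 31 genes that MYC is known to activate, all tested, 0 rose and 1 fell, and their median log2 fold change was -0.02. Before adjustment 3 were lower and 0 higher, beside 6.86% and 7.25% of all genes. DESeq2 called 2 lower and 0 higher, beside 1.9% and 1.99%. Their summed level was 5894 to 5997 CPM with DNAJC12 and 6708 to 7831 with the empty vector, with LDHA, given below, the most abundant. The gene that fell was TERT, the catalytic subunit of telomerase, with 1.35, 1.83 and 1.72 CPM against 4.19, 4.62 and 5.70 and an adjusted p of 0.0368, named after its values were seen. LDHA, lactate dehydrogenase A, had 1696, 1523 and 1611 CPM against 3073, 2637 and 2594 (log2 fold change -0.78, adjusted p = 0.0755). NPM1, a nucleolar chaperone, had 686 ± 216 CPM and 688 ± 203 (SD, n = 3). Without overexpression replicate 2, 3 of the targets rose and 4 fell, when 12.1% of all genes were called higher and 10.4% lower. With any other single library left out 0 targets did either. Among genes known to respond to SOX9 or KLF4, the epithelial keratin KRT19 had 304, 626 and 383 CPM against 660.1, 825 and 735, and the cell cycle inhibitor CDKN1A 360 ± 112 and 350.0 ± 37.0 CPM (SD, n = 3).

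**Figure D3:**
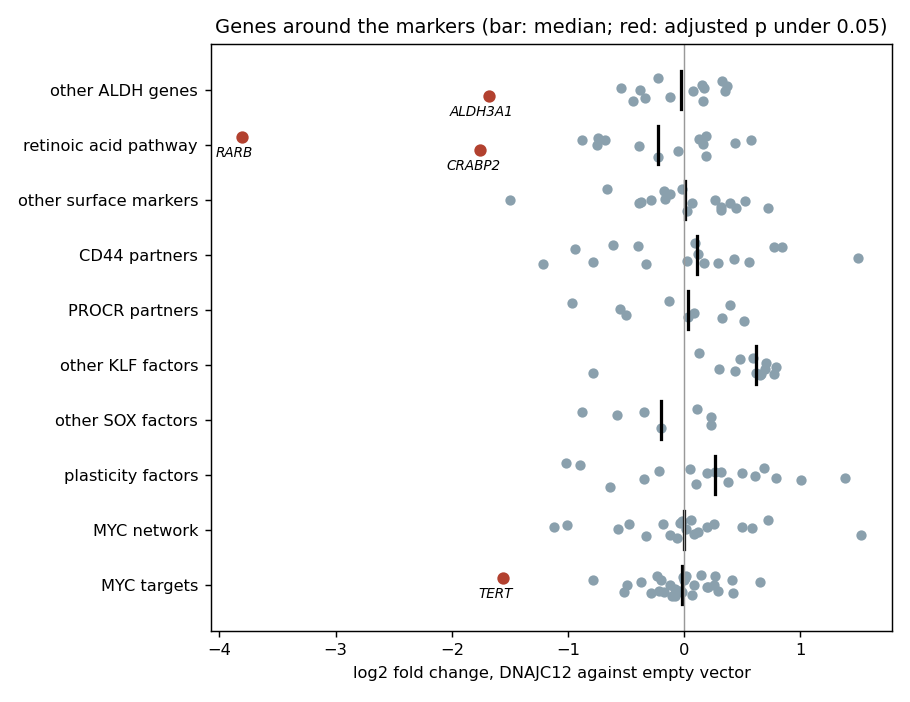
Log2 fold change, DNAJC12 against empty vector, of the tested genes in 10 lists around the markers. Points are genes, black bars list medians, and red points with names the genes called in the edgeR test. The KLF median of 0.62 is the farthest from 0, and the 4 called genes are all lower. The value of RARB depends on the prior count, since its overexpression libraries hold 3 counts in all.

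Other surface proteins and transcription factors used for stem or plastic states gave no call. Of 18 further surface proteins tested, 0 were called, with 0 higher and 1 lower unadjusted and 1 lower by DESeq2. Over all genes 7.25% were higher and 6.86% lower unadjusted, and 1.99% higher and 1.9% lower by DESeq2. The tetraspanin CD151 had 757 ± 272 and 743 ± 136 CPM (SD, n = 3), and the integrin ITGB1 525 ± 277 and 438 ± 93.3. The lower one, ABCG2, a drug exporter used to sort side-population cells and named after its values were seen, had 1.70, 2.02 and 1.41 CPM against 6.39, 4.28 and 3.89 and an adjusted p of 0.0584. Of 17 further transcription factors tested, 0 were called, with 3 higher and 2 lower unadjusted, and DESeq2 called 2 higher and 1 lower. HES1, a Notch target, had 372 ± 22.4 and 298 ± 28.8 CPM (SD, n = 3). ID1, an inhibitor of differentiation factors, had 118, 177 and 132 CPM against 274, 299 and 289 and an adjusted p of 0.0572. NANOG, LIN28B, TWIST1, TWIST2 and FOXC2 had 0 counts in every library and SOX2 had 2 counts in all. Over the 165 tested genes of all these lists together, 0 rose and 5 fell, with a median log2 fold change of 0.05, the same as over all tested genes.

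The profile of each marker over the 6 libraries was compared with those of 9684 protein-coding genes by the root mean square difference of centred log2 CPM. The profile includes the difference between the groups, so genes near a marker have a similar fold change by construction. The nearest to CD24 were S1PR3, a receptor of sphingosine 1-phosphate (0.16), and PECAM1, an endothelial adhesion molecule (0.22), both called lower with DNAJC12 at log2 fold changes of -1.94 and -1.99. The call of PECAM1 was lost without overexpression replicate 3 (adjusted p = 0.133), empty vector replicate 1 (0.101) or empty vector replicate 3 (0.0883). PECAM1 is also an endothelial marker. Of the 12 endothelial and fibroblast markers 6 were tested and PECAM1 alone was called. The DESeq2 Wald test called 1 of them higher and 1 lower, beside 1.99% and 1.9% of all genes. The summed level of the list was 64.1 to 90.8 CPM with DNAJC12 and 57.6 to 60.8 with the empty vector. PDGFRB, a growth factor receptor of pericytes and fibroblasts, had 46.1, 72.5 and 49.3 CPM against 25.4, 27.03 and 27.3 (adjusted p = 0.0630). The defining endothelial genes CDH5, VWF and CLDN5 had at most 5 counts in a library. Nearest to PROCR were ABHD6, a lipid hydrolase (0.071), and the potassium channel KCNK6 (0.071), and to CD44 OSER1 (0.020) and the adaptin AP2B1 (0.032). SOX9 was nearest to TMEM136 (0.054) and FKBP9 (0.057), KLF4 to the phosphatase PTPRM (0.032) and the kinase GSK3B (0.049), and MYC to the basement membrane collagen COL4A1 (0.053) and VEGFA (0.059). Apart from S1PR3 and PECAM1, none of these nearest genes was called. No marker was among the 2 nearest genes of another marker.

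In 17 alternative fits none of the 7 tested markers changed direction, while the calls differed between fits. All fits used the same libraries or a part of them, and 6 markers had groups that did not overlap in CPM. For these a change of direction could hardly have occurred. On the log2 scale the fold change of CD24 ran from -2.29 to -1.89, that of PROCR from -1.24 to -1.07 and that of SOX9 from 0.74 to 0.94. The corresponding ranges were 0.58 to 0.94 for KLF4, 0.48 to 0.69 for MYC and -0.17 to -0.02 for CD44. ALDH1A3 ran from -1.20 to -0.45, where the smallest value came from FPKM with a pseudocount of 1, which is as large as its level. Without overexpression replicate 2 the calls were CD24, PROCR and ALDH1A3 lower and SOX9, KLF4 and MYC higher, when 10.4% of all genes were called lower and 12.1% higher. The same 6 were called without both libraries numbered 2, with 8.41% and 10.3% of all genes. With the GC correction CD24, PROCR and ALDH1A3 were lower and SOX9 and MYC higher, with 8.99% and 8.85% of all genes, and KLF4 had an adjusted p of 0.0700. Leaving out overexpression replicate 1 gave CD24 and PROCR, with 0.728% of all genes lower and 0.95% higher. With no filter on low counts SOX9 was called as well as CD24 and PROCR, beside 1.18% of genes lower and 1.34% higher, and limma on unfiltered FPKM called 0 markers, with 0.0146% and 0.0293%. No marker was called without overexpression replicate 3, empty vector replicate 1 or empty vector replicate 3, when 0.168%, 0.168% and 0.181% of all genes were called in either direction. Without empty vector replicate 2 CD24 was the 1 marker called, and the share of all genes was 0.275%.

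**Figure D4:**
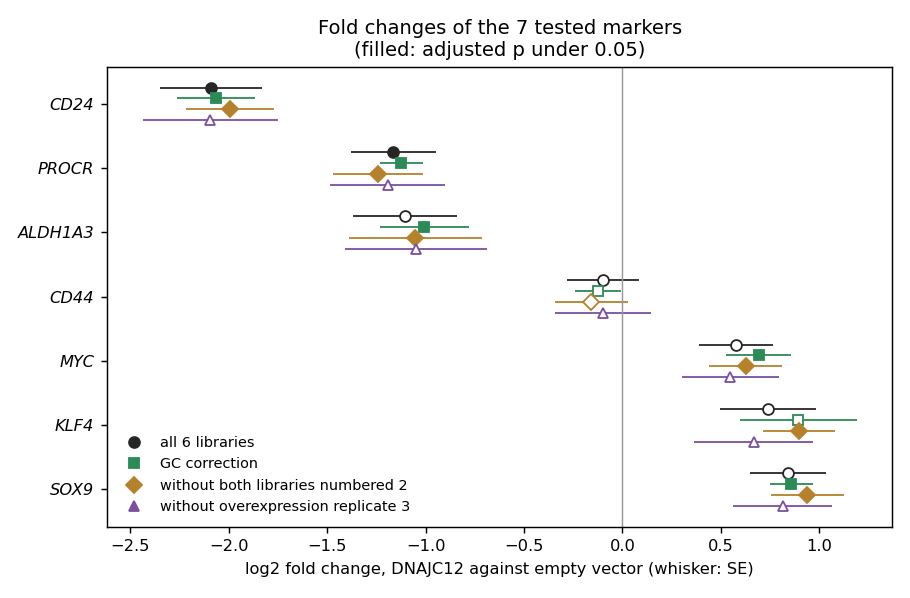
Log2 fold change of the 7 tested markers under 4 fits, with whiskers for the SE; filled symbols passed an adjusted p of 0.05. Each marker keeps its direction in all 4, CD24 lies between -2.09 and -1.995, and without overexpression replicate 3 no symbol is filled.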

How the data were processed

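RNA of MDA-MB-231 was sequenced in 6 libraries, 3 per group, grouped and numbered by their titles. The deposited tables give counts of reads per gene and FPKM, both made by the authors. The submitters' processing notes name HISAT2 2.0.5 and hg19, while the 58735 genes of the table match GENCODE 29 on GRCh38 in identifier, symbol and position, so GRCh38 is used. The sources used here give neither the counting program nor whether it used strand. Each deposited FPKM equals the count divided by gene length and by a library depth of 0.854 to 1.10 times the total count.

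Counts were tested with edgeR 4.0.16 (R 4.3.3): TMM, filterByExpr (minimum count 10, minimum total 15), robust quasi-likelihood fits, and Benjamini-Hochberg adjustment over 14520 genes at 0.05. SEs are the fold change divided by the root of the F statistic. Alternatives used DESeq2 1.42.0 and limma 3.58.1 on log2 FPKM (pseudocounts 1 and 0.1, filter 0.5 FPKM in 3 libraries), and a GC correction by a loess trend (span 0.3) on the mean GC content of a gene's transcripts. The edgeR and limma fits were tested on simulated counts. No list test was run.

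The markers and lists were chosen with earlier results of these data known. Named list genes were up to 4 called genes at 5 CPM or more whose groups did not overlap, or the 2 most abundant where fewer than 2 were called. For markers with a mean of at least 5 CPM the 2 nearest profiles (log2 CPM, prior count 2) were named. Further genes are said to be chosen after their values were seen. Promoter windows come from RefSeq. Some results, among them 1 called list gene, are not reported here.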

Additional observations from a re-analysis of the deposited data

How the results depend on the processing

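The marker counts moved with the test and with single libraries. Directions did not, and could hardly do so for the markers whose groups did not overlap. The 0 markers called higher became 1 with the DESeq2 Wald test or without a filter, 2 with the GC correction and 3 without both libraries numbered 2, and leaving out 1 library gave 0 to 3. The 2 called lower became 0 with limma on unfiltered FPKM and 0 to 3 without 1 library. Over all genes, 85 higher and 96 lower became 289 and 276 with the DESeq2 Wald test, 366 and 322 without a filter, 1285 and 1306 with the GC correction, 1514 and 1240 without both libraries numbered 2, 8 and 4 with limma on unfiltered FPKM, and 15 to 1806 and 6 to 1560 without 1 library. Over the list genes, 0 higher and 5 lower became 3 and 10, 4 and 12, 17 and 25, 21 and 23, and 0 and 0 in the same order, and 0 to 29 and 0 to 27 without 1 library. The number of libraries or of genes tested also differed in some of these fits, and the cause of the moves was not tested. The CD44 to CD24 difference ran from 1.82 to 2.21 without 1 library and was 1.998 with 0.1 added to both FPKM. No ratio of ALDH1A3 to ALDH1A1 was tested, since ALDH1A1 is at 0 in 5 libraries. Depth limits PROM1 and ALDH1A1.

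Deviations from the group means correlated at 0.45, 0.58 and 0.03 between same-numbered libraries of the 2 groups. Overexpression replicate 1 and empty vector replicate 2 gave -0.58, and overexpression replicate 2 and empty vector replicate 1 gave -0.46. Overexpression replicate 3 correlated best with empty vector replicate 1 (0.22). The labels give shared numbers only, so the main fit did not take them as pairs. Whether same-numbered libraries share a batch was not tested. With a replicate block, 3 markers were called higher and 3 lower, 1011 and 926 of all genes and 13 and 24 list genes. With the block and the GC correction these were 3 and 3, 1554 and 1543, and 21 and 30.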
